A study of Mus musculus with 6 samples.

Results

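The genes described here belong to the axon guidance families of ligands and receptors, together with the adhesion molecule gene Nrcam and the receptor phosphatase gene Ptprs. They were chosen by gene symbol, as semaphorins, plexins, neuropilins, Eph receptors, ephrins, netrins, the Unc5 family, Slits and Robos, and each gene was read from its probe set with the highest mean over all arrays. Of 16537 genes measured, 69 met this rule, 67 by family symbol. Nrcam and Ptprs were added by name with their values in this contrast known, so their differences are a description without a test. The symbol rule also took in Unc50, a Golgi membrane protein gene outside the netrin receptor family, and Plxna4os1, a transcript annotated as antisense to Plxna4. Without these, 65 genes are left, called strict family genes below. They still count Unc5cl, a death domain protein related to Unc5c. A further 4 family genes, Epha6, Ephb2, Ntn5 and Robo3, had no probe set with a single symbol and were not analysed here.

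RNA from whole mouse lung was hybridised to single-channel arrays, 3 of them labelled Falcor-null and 3 labelled wild type. Falcor is a long non-coding RNA gene beside the transcription factor gene Foxa2, and the labels do not say how it was made null. Every sample was of mixed CD1 and C57Bl6 strain and was taken after naphthalene, a compound that injures the conducting airway. The labels give 31, 32 and 33 days after naphthalene for the Falcor-null samples, and 28, 29 and 30 days for the wild-type samples, so genotype and day as labelled cannot be told apart. These days go up by 1 from sample to sample, and whether they are the actual days of sampling is not known here. Age and sex are not given in the sources used here, nor is it said whether each sample came from a separate animal, so p-values reflect only how far these samples spread, and that spread may be technical.

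The Falcor probe set went against the label. Its log2 signal was 6.82, 6.34 and 6.32 on the arrays labelled Falcor-null, against 4.69, 5.01 and 5.45 on the wild-type arrays (log2 difference 1.44, SE 0.21, limma adjusted p 0.0423). The probe set was dim, with a mean over all arrays below 5.95, the 30th percentile of all genes. It is not known here whether its probes fall inside the stretch altered in the null allele, and probes that fall elsewhere cannot check the labels. Directions below therefore rest on the labels. Array medians lay between 6.69 and 6.70 on the arrays labelled Falcor-null, and between 6.72 and 6.74 on the wild-type arrays, and precision is limited by there being 3 arrays in a group. The 4 lung markers Sftpc, Sftpb, Scgb1a1 and Ager were all among the bright genes, with group means from 12.2 to 13.6.

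Axon guidance molecules steer growing nerve fibres, and the same families act outside the nervous system in blood vessels, epithelium and immune cells. Secreted class 3 semaphorins bind neuropilins, which signal through class A plexins, whereas membrane semaphorins bind plexins directly. Slits bind Robo receptors, netrins bind Unc5 receptors and Dcc or neogenin, and ephrins bind Eph receptor kinases on neighbouring cells, with signals passing into both cells. In lung these families take part in vessel growth and branching of the airways.

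Nrcam, a cell adhesion molecule of the L1 family best known from axons and nodes of Ranvier, had the largest difference of the 69 genes. Its log2 signal was 8.11, 8.26 and 7.68 on the arrays labelled Falcor-null, against 6.002, 6.86 and 6.08 on the wild-type arrays. The groups did not overlap, although wild type replicate 2 stood above the other wild-type arrays and Falcor-null replicate 3 stood below the others of its group. The group means were 8.01 ± 0.30 on the arrays labelled Falcor-null and 6.31 ± 0.47 on the wild-type arrays (SD, n = 3 each), a log2 difference of 1.70 (SE 0.25) or 3.25-fold higher. Leaving out single arrays gave differences from 1.54, without wild type replicate 1, to 1.97, without wild type replicate 2.

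Ptprs, a receptor tyrosine phosphatase of the LAR family that binds heparan and chondroitin sulfate proteoglycans on axons, was also higher on every array labelled Falcor-null. It read 8.76, 8.57 and 8.65 on the arrays labelled Falcor-null, against 8.05, 8.08 and 8.06 on the wild-type arrays. The groups did not overlap, and the wild-type arrays were nearly level with one another. The log2 difference was 0.60 (SE 0.08), or 1.51-fold.

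**Figure D1:**
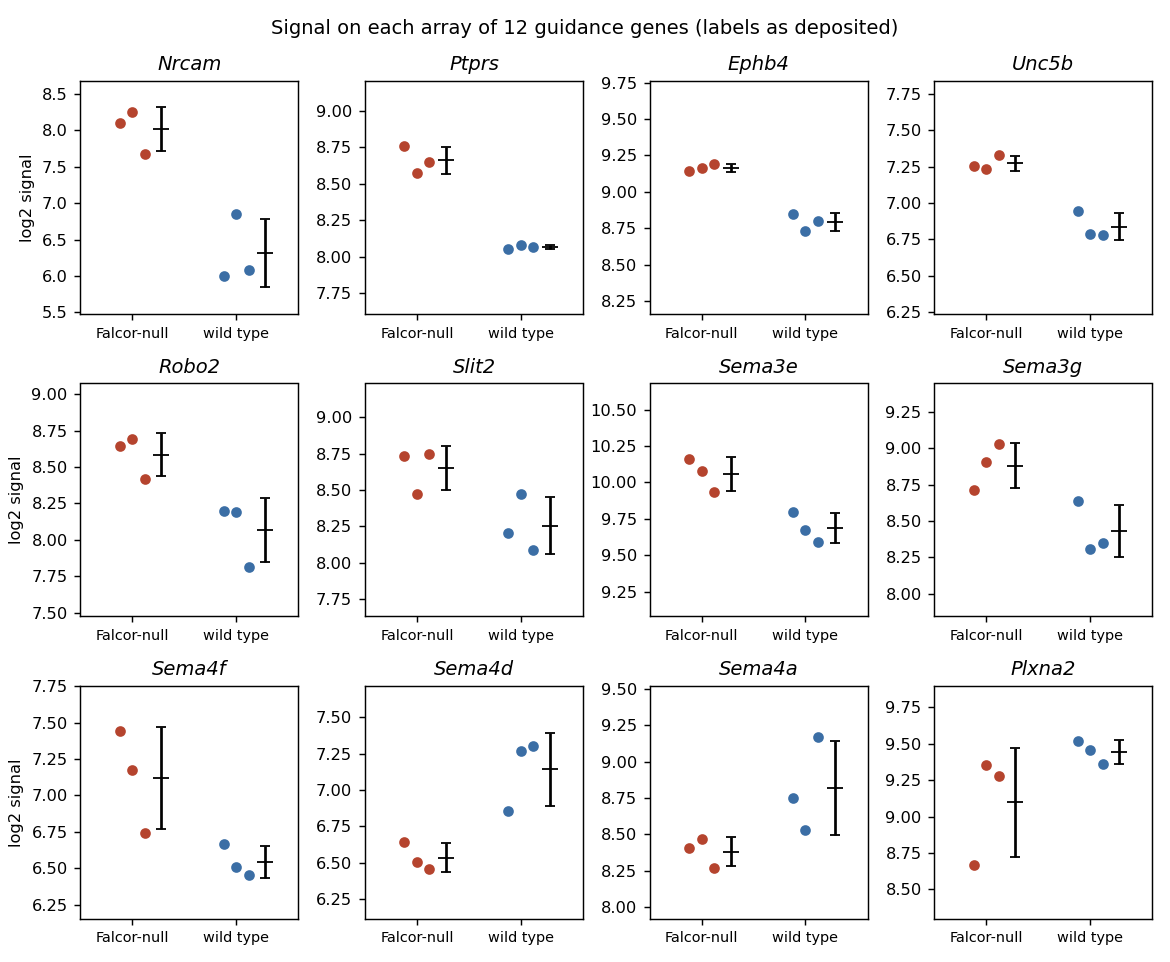
Log2 signal of 12 guidance genes on each array, with the 3 arrays labelled Falcor-null left of the 3 wild-type arrays in every panel; points are arrays and bars are the mean ± SD. The Nrcam panel spans a wider range than the others. All 12 genes come from those whose groups did not overlap, 33.3% of the 69 genes against 19.5% of all genes. The lack of overlap in every panel therefore follows from the choice of genes. Sema4d, Sema4a and Plxna2 are lower on the arrays labelled Falcor-null and the other 9 higher.

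The promoter windows of these 2 genes are printed because Nrcam and Ptprs lead the set and because Falcor lies beside Foxa2, whose forkhead domain binds short words such as TGTTTAC. The sequences are RefSeq windows of GRCm38.p6, from 250 bases before to 50 bases after a gene start, 5′ to 3′ along the gene, with every CG pair in capitals. The Nrcam window is chr12:44328635-44328934 on the plus strand, and the Ptprs window, from the first listed of 2 starts, is chr17:56476431-56476730 on the minus strand.
Nrcam: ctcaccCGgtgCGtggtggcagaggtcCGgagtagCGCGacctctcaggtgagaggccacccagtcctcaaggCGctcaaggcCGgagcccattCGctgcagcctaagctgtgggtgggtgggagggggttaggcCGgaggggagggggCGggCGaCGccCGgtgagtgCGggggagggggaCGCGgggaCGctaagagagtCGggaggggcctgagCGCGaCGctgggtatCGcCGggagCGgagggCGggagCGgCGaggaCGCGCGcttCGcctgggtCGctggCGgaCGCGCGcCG
Ptprs: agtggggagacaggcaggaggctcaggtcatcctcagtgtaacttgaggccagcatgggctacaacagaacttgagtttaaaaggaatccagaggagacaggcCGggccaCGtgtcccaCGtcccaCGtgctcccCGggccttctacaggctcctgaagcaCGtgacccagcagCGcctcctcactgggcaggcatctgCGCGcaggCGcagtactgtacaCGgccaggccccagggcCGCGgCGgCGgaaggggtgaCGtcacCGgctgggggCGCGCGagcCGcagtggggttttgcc
The Nrcam window held 37 CG pairs and was 74.0% G or C, and this Ptprs window held 21 and was 65.7% G or C, where the median over 32851 windows was 7 pairs and 52.7%. The word TGTTTAC and its variants TGTTTGC and TATTTAC and also TATTTGC, searched on both strands after the values were seen, were in neither of these windows nor in the other Ptprs window. Of the 76 windows of the guidance genes, 5 held a word (6.58%), and of all windows 13.5% did. The 76 windows belong to 59 of the genes, and 5 of these genes held a word (8.47%). These shares take no account of the G and C content of the windows. The absence says only that these letters are not in these windows.

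Genes next to Nrcam and Ptprs on their chromosomes were read for comparison, and none passed the test. The 10 nearest measured genes of the RefSeq order around Nrcam, 5 on each side, had 6 higher and 4 lower means, with log2 differences from -0.38 to 0.48 and a lowest adjusted p of 0.166 in limma. Around Ptprs, 8 of 10 were higher and 2 lower, from -0.17 to 0.20.

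The partners of Nrcam and Ptprs were read from lists of known relatives and binding partners. Of 14 measured genes of the L1 family, contactins, ankyrins and related proteins, 10 were higher and 4 lower and none passed the test, with a median log2 difference of 0.12, against 0.00 (0.0026) over all genes. Cntn1, a contactin that binds Nrcam, differed by 0.49 (adjusted p 0.317), Cntn4 by 0.65 (adjusted p 0.325), Cntn2 by 0.23 (adjusted p 0.346) and Chl1, a close relative of L1, by -0.62 (adjusted p 0.370, all in limma). Chl1 was -0.29 without wild type replicate 1, and Chl1, Cntn4 and Cntn2 were dim, with a mean log2 signal below 5.95, the 30th percentile of all genes. Of 30 measured genes of the LAR phosphatase list, 22 were higher and 8 lower and none passed, with a median of 0.06. Ptprd, the sister phosphatase of Ptprs and also dim, read 5.50, 5.60 and 5.52 on the arrays labelled Falcor-null, against 5.10, 5.03 and 4.76 on the wild-type arrays. Its difference of 0.58 (SE 0.10, limma adjusted p 0.0766) did not pass, nor did that of Agrn, a heparan sulfate proteoglycan of basement membranes, at 0.51 (SE 0.09, adjusted p 0.0793). Both genes had groups that did not overlap.

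Markers of nerve tissue were read beside Nrcam. Of 12 neuron markers 7 were measured, 3 higher and 4 lower, with 5 of them dim and a summed linear signal of 1110 to 1262 on the arrays labelled Falcor-null, against 978 to 1103 on the wild-type arrays. Stmn2, a neuronal stathmin chosen with its values known, differed by 0.29 (limma adjusted p 0.325) and made up 63.4% to 75.1% of this sum on the arrays. The other 6 neuron markers summed to 314 to 377 on the arrays labelled Falcor-null, against 351 to 369 on the wild-type arrays, and those ranges overlapped. Of 10 Schwann cell markers 6 were measured, 4 higher and 2 lower, 4 of them dim, with sums of 2133 to 2505 on the arrays labelled Falcor-null, against 2241 to 2255 on the wild-type arrays. Pmp22, a myelin protein gene that other tissues also express, made up 89.1% to 91.1% of the Schwann cell sum, and the other 5 markers summed to 223 to 230 on the arrays labelled Falcor-null, against 220 to 245 on the wild-type arrays. Of 8 neuroendocrine markers 5 were measured, 3 higher and 2 lower, with 3 of them dim. Their sums were 259 to 276 on the arrays labelled Falcor-null, against 235 to 270 on the wild-type arrays, and those ranges overlapped. No marker of these 3 lists passed the test, and their part in the Nrcam difference was not tested.

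Of the 67 family genes none passed an adjusted p of 0.05 in limma, where 0.556% of all genes passed, 0.0968% as higher and 0.46% as lower. At an unadjusted p of 0.05, 12 family genes were higher and 3 lower, where 6.11% and 7.65% of all genes were. Means were higher on the arrays labelled Falcor-null for 49 of the 67 genes (73.1%), against 50.8% of all genes, and the median log2 difference was 0.12 for the family genes. Groups did not overlap for 17 higher genes (25.4%) and 4 lower genes (5.97%), where the shares over all genes were 8.96% and 10.6%. In bulk tissue, more cells of a type and more RNA per cell cannot be told apart.

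**Figure D2:**
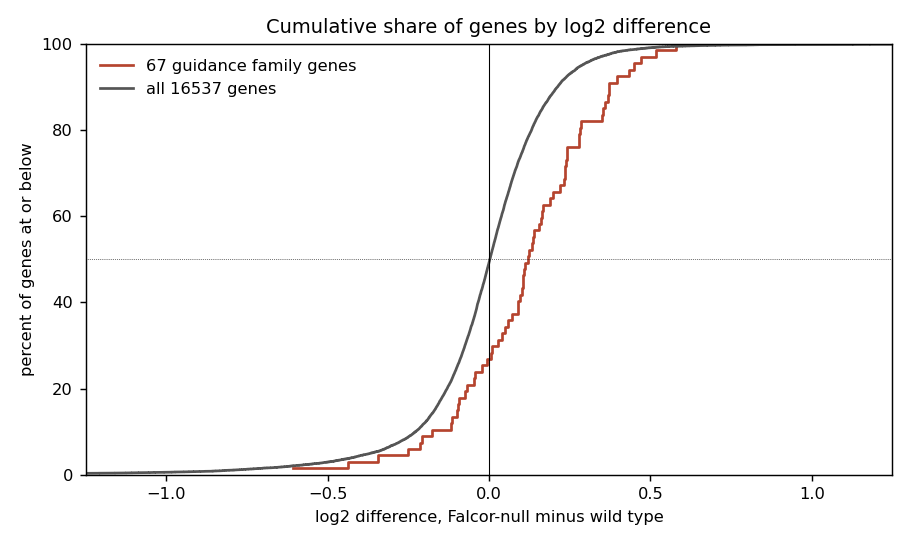
Cumulative percent of genes (vertical axis) at or below each log2 difference of Falcor-null minus wild type (horizontal axis), for the 67 guidance family genes and for all 16537 genes. The family curve lies to the right of the curve of all genes through most of its range, with a median of 0.12 against 0.00, and ends at 0.58.

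The number of genes above the wild-type mean differed between the arrays labelled Falcor-null. Counting Nrcam and Ptprs, replicate 1 lay above the wild-type mean for 54 of the 69 genes and replicate 2 for 52, whereas replicate 3 did for 39. No such count over all genes is given beside these. By their medians over all probe sets, 6.69 to 6.70, the 3 arrays were level. Whether a count over all genes would also be lower on replicate 3 is not known here. The 16 strict family genes with a mean below 5.95 had a median difference of 0.04, and the 49 at or above it had 0.16.

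**Figure D3:**
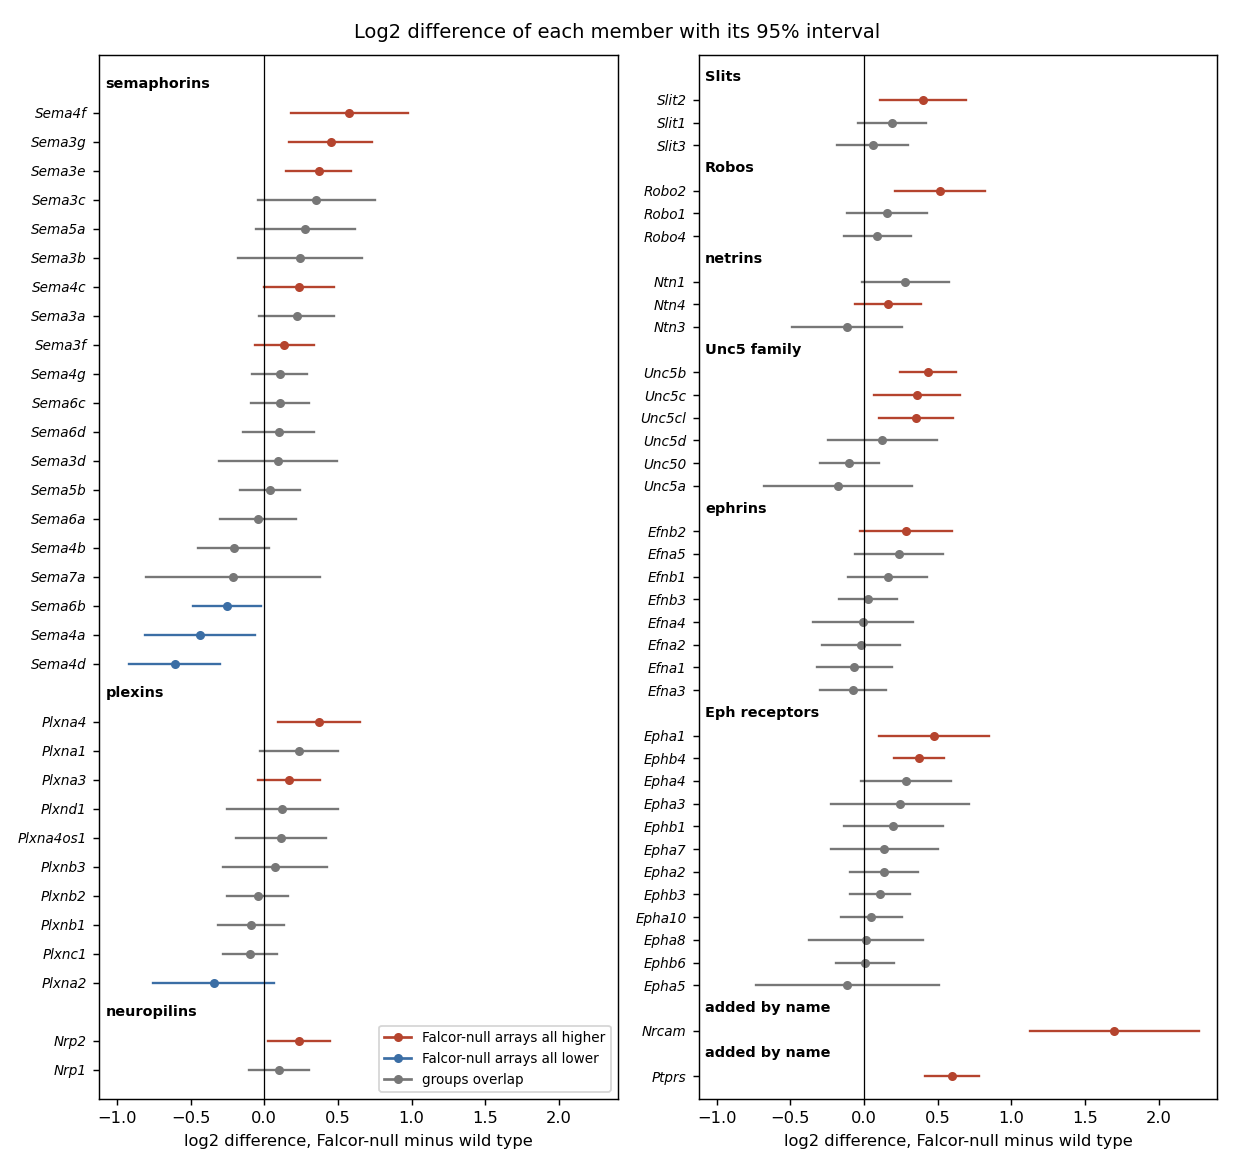
Log2 difference of Falcor-null minus wild type for each of the 69 genes by family, points with 95% intervals of the model; red and blue mark genes whose arrays labelled Falcor-null all lay above or all below the wild-type arrays, grey those with overlap. Nrcam stands apart at 1.70, the class 3 semaphorins all lie right of 0, and Sema4d, Sema4a, Sema6b and Plxna2 are the 4 marked as lower on all arrays labelled Falcor-null.

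Among the semaphorins, 14 of 20 genes were higher and 6 lower, and none passed. All 7 class 3 genes, the secreted kind, had higher means, from 0.09 to 0.45 with a median of 0.24. Sema3e, which signals through Plxnd1 without a neuropilin, read 10.16, 10.08 and 9.93 on the arrays labelled Falcor-null, against 9.80, 9.67 and 9.59 on the wild-type arrays (log2 difference 0.37, SE 0.09, limma adjusted p 0.155). Sema3g, a semaphorin of arterial endothelium, read 8.71, 8.90 and 9.03 on the arrays labelled Falcor-null, against 8.64, 8.31 and 8.35 on the wild-type arrays (0.45, SE 0.12, adjusted p 0.171). In both genes the groups were apart, by a narrow margin in Sema3g. Of the other class 3 genes, picked after their values were seen, Sema3c differed by 0.35, Sema3b by 0.24, Sema3a by 0.22, Sema3f by 0.14 and Sema3d by 0.09, with adjusted p-values from 0.419 to 0.867.

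The class 4 semaphorins, which are anchored in the membrane, divided 3 higher and 3 lower. Sema4d, the CD100 antigen of T cells and other lymphocytes and a ligand of Plxnb1, read 6.65, 6.50 and 6.46 on the arrays labelled Falcor-null, against 6.86, 7.27 and 7.30 on the wild-type arrays. All arrays labelled Falcor-null were lower, with a difference of -0.61 (SE 0.13, 95% interval -0.92 to -0.30) that did not pass (limma adjusted p 0.105). Without wild type replicate 1, the lowest of its group, the difference was -0.75 and passed (adjusted p 0.0423). Sema4a, which is found on B cells, dendritic cells and activated T cells, read 8.41, 8.47 and 8.27 on the arrays labelled Falcor-null, against 8.75, 8.53 and 9.17 on the wild-type arrays (-0.44, SE 0.16, adjusted p 0.283), and its difference was -0.26 without wild type replicate 3. Sema4f, known from neurons and glia, had the largest positive difference of the semaphorins, with 7.44, 7.18 and 6.74 on the arrays labelled Falcor-null, against 6.66, 6.51 and 6.45 on the wild-type arrays (0.58, SE 0.17, adjusted p 0.205).

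Sema4c differed by 0.23 (limma adjusted p 0.370) and Sema4b by -0.21 (adjusted p 0.426), both picked after their values were seen. In class 6, whose members are transmembrane ligands of class A plexins, Sema6b differed by -0.25 (SE 0.10, adjusted p 0.322) with groups that did not overlap. Sema5a (0.28, adjusted p 0.450) and the GPI-anchored Sema7a (-0.21, adjusted p 0.772) were also picked after their values were seen. Sema7a spread widely, with 8.35, 9.10 and 9.26 on the arrays labelled Falcor-null, against 9.36, 9.23 and 8.76 on the wild-type arrays. The other 5 semaphorins lay between -0.04 and 0.11.

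Lymphocyte markers were lower on the same arrays as Sema4d and Sema4a. All 7 measured T cell markers of 8 were lower, with a median log2 difference of -0.57, 2 of them dim, and a summed linear signal of 615 to 688 on the arrays labelled Falcor-null, against 1089 to 1368 on the wild-type arrays. Cd3e, Cd3g and Cd4 fell (-1.20, -1.15 and -1.23, limma adjusted p 0.00949, 0.0324 and 0.0131). All 7 measured B cell markers of 8 were lower as well, with a median of -0.65 and sums of 561 to 605 on the arrays labelled Falcor-null, against 846 to 1014 on the wild-type arrays, and Cd79a fell (-0.75, adjusted p 0.0282). The 8 alveolar macrophage markers had a median of -0.49, and none passed (lowest limma adjusted p 0.0748). Their sums were 4610 to 6679 on the arrays labelled Falcor-null, against 8142 to 11450 on the wild-type arrays. Chil3, the brightest of them, made up 52.4% to 68.5% of this sum on the arrays. The other 7 summed to 2115 to 3181 on the arrays labelled Falcor-null, against 3196 to 3758 on the wild-type arrays. The part of these cells in the semaphorin differences was not tested.

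Among the receptors of semaphorins, both neuropilins and 6 of 10 plexin entries had higher means, and none passed. Plxna4, a receptor for class 3 and class 6 semaphorins, read 8.40, 8.78 and 8.53 on the arrays labelled Falcor-null, against 8.34, 8.16 and 8.10 on the wild-type arrays (0.37, SE 0.12, limma adjusted p 0.233). Plxna2 went the other way, with 8.67, 9.35 and 9.28 on the arrays labelled Falcor-null, against 9.52, 9.45 and 9.36 on the wild-type arrays (-0.34, SE 0.18, adjusted p 0.444). Falcor-null replicate 1 stood well below all other arrays, and without it the difference was -0.13.

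Plxna1 differed by 0.24 (limma adjusted p 0.412) and Plxna3 by 0.17 (adjusted p 0.462). Each of Plxna1 and Plxnb1 had a second probe set, at 0.10 for Plxna1 and 0.01 for Plxnb1. Plxnc1, the receptor of Sema7a, differed by -0.10 (adjusted p 0.637) and Plxnb1, the receptor of Sema4d, by -0.09 (adjusted p 0.738), with intervals of -0.28 to 0.08 and -0.32 to 0.13. Plxnd1, the endothelial receptor of Sema3e, gave 0.12 (adjusted p 0.798) and Plxna4os1 0.11 (adjusted p 0.762), both picked after their values were seen. The other 2 plexins lay between -0.05 and 0.07. Nrp2, the neuropilin of veins and lymphatic vessels, read 9.36, 9.21 and 9.24 on the arrays labelled Falcor-null, against 8.89, 9.10 and 9.10 on the wild-type arrays (0.24, SE 0.09, adjusted p 0.313). Nrp1, a coreceptor for semaphorins and vascular endothelial growth factor, differed by 0.10 (adjusted p 0.665).

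Slits and Robos had higher means throughout, 3 of 3 in each family, and none passed. Robo2 read 8.64, 8.69 and 8.42 on the arrays labelled Falcor-null, against 8.20, 8.19 and 7.82 on the wild-type arrays (0.52, SE 0.13, 1.43-fold, limma adjusted p 0.150). Slit2, a secreted ligand of Robo1 and Robo2, read 8.74, 8.47 and 8.75 on the arrays labelled Falcor-null, against 8.20, 8.47 and 8.09 on the wild-type arrays (0.40, SE 0.12, adjusted p 0.226). The Slit2 groups were only just apart, since Falcor-null replicate 2 and wild type replicate 2 both rounded to 8.47. Slit1 differed by 0.19 (adjusted p 0.457), Slit3 by 0.06 (adjusted p 0.858), Robo1 by 0.15 (adjusted p 0.612) and Robo4, the Robo of endothelium, by 0.09 (adjusted p 0.747).

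In the netrin system 2 of 3 netrins and 4 of 6 Unc5 family genes had higher means, and none passed. Unc5b, a netrin receptor of vascular endothelium, had the smallest p of the 67 family genes. It read 7.25, 7.23 and 7.33 on the arrays labelled Falcor-null, against 6.94, 6.79 and 6.78 on the wild-type arrays, a difference of 0.43 (SE 0.08, 95% interval 0.25 to 0.62, 1.35-fold) that did not pass (limma adjusted p 0.0793). Unc5c read 7.53, 7.31 and 7.42 on the arrays labelled Falcor-null, against 6.81, 7.24 and 7.12 on the wild-type arrays (0.36, SE 0.12, adjusted p 0.265). The groups of both genes were apart.

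Unc5cl, a death domain protein related to Unc5c, differed by 0.35 (limma adjusted p 0.217), Unc5d by 0.12 (adjusted p 0.789), Unc5a by -0.18 (adjusted p 0.779) and Unc50 by -0.10 (adjusted p 0.667). Ntn1, the founding netrin of vertebrates, gave 0.28 (adjusted p 0.388), Ntn4, a netrin of basement membranes, 0.16 (adjusted p 0.506) and Ntn3 -0.12 (adjusted p 0.802). The netrin receptor neogenin, Neo1, from the list of guidance signalling genes, differed by 0.31 (adjusted p 0.218) with groups apart.

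Of the 12 Eph receptors 11 had higher means, 8 without wild type replicate 2, and none passed. Ephb4, the Eph receptor of venous endothelium, read 9.14, 9.16 and 9.19 on the arrays labelled Falcor-null, against 8.85, 8.73 and 8.80 on the wild-type arrays. The difference of 0.37 (SE 0.07, 95% interval 0.20 to 0.54, 1.295-fold) had a limma adjusted p of 0.0856. It passed only with an intensity trend and robust variance in the model (adjusted p 0.0379). Epha1, an epithelial Eph receptor, read 7.69, 7.24 and 7.25 on the arrays labelled Falcor-null, against 6.90, 6.70 and 7.16 on the wild-type arrays (0.47, SE 0.16, adjusted p 0.256). Both genes had groups apart.

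Epha4 differed by 0.28 (limma adjusted p 0.401), Ephb1 by 0.20 (adjusted p 0.596), Epha2 by 0.13 (adjusted p 0.605) and Ephb3 by 0.11 (adjusted p 0.636), and the other 6 Eph receptors lay between -0.11 and 0.24. The ephrins divided 4 higher and 4 lower, with a median of 0.01. Efnb2, the transmembrane ligand of Ephb4 and a marker of arterial endothelium, read 9.78, 10.13 and 9.72 on the arrays labelled Falcor-null, against 9.72, 9.42 and 9.64 on the wild-type arrays (0.28, SE 0.13, adjusted p 0.405). Falcor-null replicate 3 was level with wild type replicate 1 to 2 decimals. Efna5 (0.24), Efnb1 (0.16), Efnb3 (0.03), Efna1 (-0.07) and Efna3 (-0.08) had adjusted p-values from 0.465 to 0.926, and the other 2 lay at -0.02 and -0.01.

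Cell types that carry many of these receptors were read beside them. All 12 endothelial markers had higher means, with a median log2 difference of 0.19 and a summed linear signal of 18450 to 19440 on the arrays labelled Falcor-null, against 16220 to 17060 on the wild-type arrays. None passed, the closest being the endothelial genes Tie1 (0.47) and Cldn5 (0.43), both at a limma adjusted p of 0.101 and picked after their values were seen. Fibroblast markers had 8 of 10 higher, a median of 0.26 and sums of 10370 to 11160 on the arrays labelled Falcor-null, against 8362 to 10060 on the wild-type arrays. All 9 smooth muscle and pericyte markers were higher, with a median of 0.27 and sums of 5244 to 6239 on the arrays labelled Falcor-null, against 4580 to 4951 on the wild-type arrays, and Tagln, an actin-binding protein of smooth muscle, rose (0.55, adjusted p 0.0407).

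The 10 alveolar type 1 cell markers were all higher, with a median of 0.19 and sums of 21200 to 23380 on the arrays labelled Falcor-null, against 19260 to 19720 on the wild-type arrays. The 10 alveolar type 2 cell markers had a median of -0.03, with differences from -0.47 to 0.27, and none passed. The lowest was Sftpd, picked after its values were seen, with groups apart (limma adjusted p 0.210). The 8 club cell markers had a median of -0.02, with differences from -0.24 to 0.13, and none passed. Higher means were also found for 5 of 7 ciliated cell markers (median 0.19), 7 of 7 cardiac muscle markers (0.17) and 5 of 6 mesothelial cell markers (0.17), and none of these passed. The part of these cell types in the guidance gene differences was not tested.

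**Figure D4:**
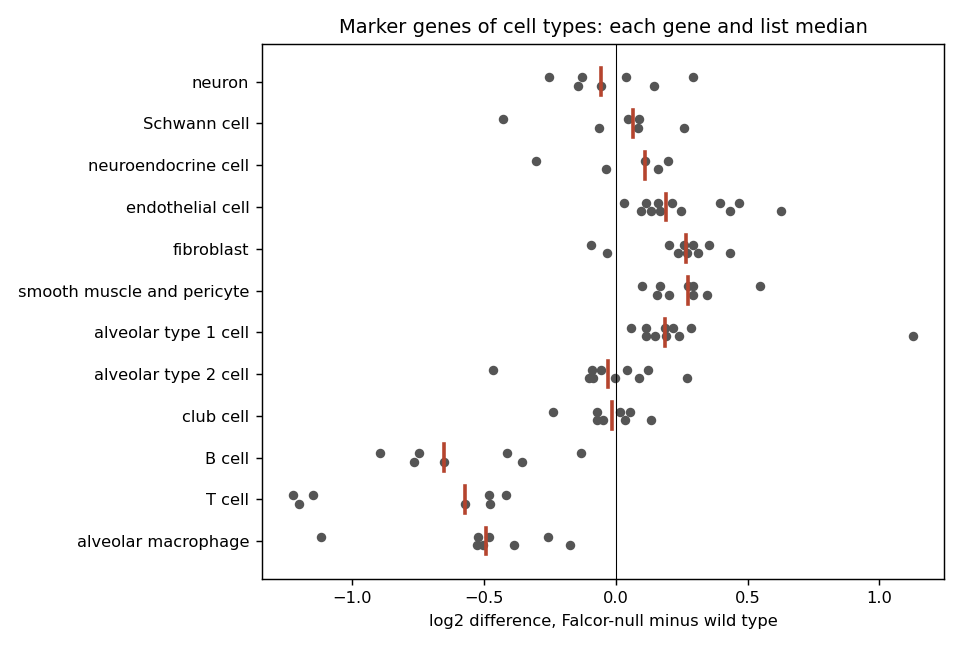
Log2 difference of Falcor-null minus wild type for each measured marker gene of 12 cell type lists, as grey points, with the list median as a red bar. The endothelial, fibroblast, smooth muscle and alveolar type 1 lists have medians from 0.19 to 0.27, the B cell, T cell and macrophage lists from -0.65 to -0.49, and the neuron median lies at -0.06.

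Downstream of the receptors, 28 of 47 measured genes of the guidance signalling list were higher and 19 lower, none passed, and the median was 0.04. The groups did not overlap for 6 higher (12.8%) and 3 lower genes (6.38%), where the shares over all genes were 8.96% and 10.6%. Mical3, an enzyme of the family that oxidises actin below plexins, differed by 0.31 (SE 0.08, limma adjusted p 0.160). Srgap1, a GTPase-activating protein that binds Robo receptors, differed by 0.40 (SE 0.12, adjusted p 0.199), and the kinase Fes by -0.22 (SE 0.07, adjusted p 0.249). These 3 genes and Neo1 had the smallest p-values of the list, and in all 4 the groups were apart.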

How the data were processed

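The values are log2 probe set signals as deposited by the authors, 1 column per array over 24173 probe sets. Per the submitters' processing notes the tools were oligo, RMA and limma; their versions, any filter and the genome build are not given in the sources used here. RMA fits the arrays to a common distribution, which would hide a change shared by most genes. The deposited distributions still differed between the groups at the low end. The lowest value was 2.09 to 2.42 on the arrays labelled Falcor-null, against 3.19 to 3.22 on the wild-type arrays. Correlations between arrays over all probe sets were 0.982 to 0.986 within groups and 0.970 to 0.976 between groups. The source of these group differences was not tested. Probe sets were named through the platform annotation, of which 17476 had 1 symbol and were used, 1308 had several and 5389 had none. All 69 members matched RefSeq (GRCm38.p6), the source of the promoter windows.

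The groups were compared with lmFit and eBayes (limma 3.58.1 in R 4.3.3), two-sided and with no covariate. Benjamini-Hochberg adjustment ran over 16537 genes, with 0.05 as the threshold for passing. With 3 arrays against 3, the smallest p that exact permutation allows is 0.1. The fit was first tested on simulated data with known changes.

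The members and lists were chosen with earlier results of these data known. The naming rule took Nrcam, Ptprs, up to 6 genes per family and 4 per further list by smallest p, Falcor and Foxa2; all others named were chosen after their values were seen. Foxa2 differed by 0.27 (SE 0.07, limma adjusted p 0.175). Alternatives were a replicate block, median centring of arrays, a second quantile normalization, a trended robust prior, a filter on dim genes, every probe set or the mean over probe sets, and leaving out each array. Figures used matplotlib 3.10.9 (Python 3.11.15).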

Additional observations from a re-analysis of the deposited data

How the results depend on the processing

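Of the 69 genes 2 were past the threshold as higher, Nrcam and Ptprs, which were chosen with this known, so nothing is read from their count; it was 3 with a trended robust prior, 1 with the replicate block and 0 to 1 when single arrays were left out (1 without wild type replicate 2, otherwise 0). None passed as lower, and 0 to 1 did when single arrays were left out. No family gene passed under any alternative except Ephb4 with the trended robust prior and Sema4d without wild type replicate 1. Over all genes 16 passed as higher and 76 as lower. The counts were 26 higher with dim genes left out, 41 higher and 115 lower with the trended robust prior, 3 higher and 29 lower with the replicate block, and 3 to 13 higher and 15 to 76 lower when single arrays were left out.

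Same-numbered arrays had correlations of their deviations from the group means of 0.02, -0.00 (-0.0025) and -0.08. These values over all genes show no pairing of the arrays, but they cannot exclude one that affects some genes. Under the block Nrcam passed and Ptprs did not, and the reason was not tested. The median difference of the 69 genes lay between 0.11 and 0.17 under the 13 alternatives. Higher groups that did not overlap numbered 22 to 29 of the 69 (31.9% to 42.0%) when single arrays were left out. Lower ones numbered 4 to 7 (5.8% to 10.1%). Over all genes the shares in the same designs were 13.0% to 16.2% higher and 14.3% to 16.5% lower. The higher counts include Nrcam and Ptprs, which were chosen with their values known and were apart under every alternative, so nothing is read from their part. Median centring left 2 lower genes apart (2.9%), Sema4d and Sema4a, where 7.49% of all genes were. It gave 25 higher genes apart (36.2%), where 14.2% of all genes were. Genes lower at an unadjusted limma p under 0.05 numbered 3 of the 69, where 7.65% of all genes were lower at that p. They numbered 1 to 4 when single arrays were left out, for which no share over all genes is given here. The Nrcam difference lay between 1.54 and 1.97, and that of Ptprs between 0.55 and 0.64.

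Among the genes named, small differences changed sign when 1 array was left out, with ranges of -0.39 to 0.061 for Sema7a, -0.028 to 0.22 for Plxna4os1, -0.14 to 0.047 for Efna1, -0.041 to 0.067 for Efnb3, -0.028 to 0.25 for Plxnd1, -0.028 to 0.11 for Slit3, -0.24 to 0.026 for Ntn3, -0.014 to 0.24 for Unc5d, -0.14 (-0.145) to 0.0008 for Plxnb1 and -0.051 to 0.26 for Sema3d. Cd3e passed under 12 of 13 alternatives, Cd4 under 11, Cd79a under 7, Cd3g and Tagln under 6 each, and Falcor under 6 of 12. The causes were not tested. Of the strict family genes 16 were dim.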
